A study of Homo sapiens with 10 samples.

Results

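NRF2, encoded by NFE2L2, is the transcription factor that switches on the antioxidant and detoxification enzymes of the cell. The genes described here are NFE2L2 itself and 8 of its well-known targets, NQO1, HMOX1, GCLC, GCLM, TXNRD1, SRXN1, PGD and ME1, chosen by gene symbol. All 9 were measured, of 18480 genes in each of 2 deposited tables. The cells were HEK-293, an established line derived from human embryonic kidney, which received small interfering RNAs (siRNAs) by transfection with RNAiMax, at a concentration of 10 nM. The 5 groups of 2 arrays each were cells given siRNA 1 or siRNA 2 to LINC00324, a long noncoding RNA (lncRNA), cells given siRNA 1 or siRNA 2 to LOC400043, also an lncRNA, and cells given a scramble siRNA as the control. The arrays were Affymetrix HuGene-1_0-st, with probes spread along each gene, and the labels call the 2 arrays of each group biological replicates. For the siRNAs the sequence is not given in the sources used here, and all groups come from 1 cell line.

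In unstressed cells the adaptor KEAP1 holds NRF2 for destruction by the proteasome. Oxidants and electrophiles modify KEAP1, and NRF2 then accumulates, pairs with a small MAF protein in the nucleus and binds antioxidant response elements near its targets, sites for which the repressor BACH1 competes. Because the control acts largely on the protein, the level of NFE2L2 RNA alone does not report NRF2 activity. The targets studied here rebuild glutathione (GCLC, GCLM), run the thioredoxin system (TXNRD1, SRXN1), supply NADPH (PGD, ME1), reduce quinones (NQO1) and break down haem (HMOX1).

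The core of the antioxidant response element, written with N for any base, is TGACNNNGC on one strand and its reverse complement GCNNNGTCA on the other. It was searched in the windows from 250 bases before to 50 bases after each annotated start, taken from RefSeq on GRCh38.p14. For 8 of the 9 genes there were 10 such windows, and HMOX1 has no window in that set. The core was found in 5 of the 10 windows and in 4 of the 8 genes, PGD, GCLM, ME1 and TXNRD1. Among all genes it was found in 13.3% of 35116 windows and in 16.1% of 27305 genes. The windows of NFE2L2, GCLC, NQO1 and SRXN1 do not hold these letters, which says nothing about more distant sites. The stretches below show the match in each of the 5 windows, 5′ to 3′ along the gene, with the core in capitals and up to 40 bases on either side, ending at the annotated start where that is nearer.
PGD (chr1:10398823-10398911, plus strand): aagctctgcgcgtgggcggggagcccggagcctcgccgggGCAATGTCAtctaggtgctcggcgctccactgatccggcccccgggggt
GCLM (chr1:93909431-93909504, minus strand): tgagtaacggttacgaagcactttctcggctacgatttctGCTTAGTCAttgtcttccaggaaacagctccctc
ME1 (chr6:83431140-83431228, minus strand): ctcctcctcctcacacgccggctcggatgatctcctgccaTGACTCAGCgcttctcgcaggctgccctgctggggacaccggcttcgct
TXNRD1, upstream start (chr12:104215640-104215728, plus strand): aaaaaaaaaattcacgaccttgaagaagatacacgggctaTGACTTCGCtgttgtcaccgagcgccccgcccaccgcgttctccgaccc
TXNRD1, downstream start (chr12:104286890-104286978, plus strand): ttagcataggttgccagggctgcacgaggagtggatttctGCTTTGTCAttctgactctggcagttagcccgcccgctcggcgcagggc
The ME1 window and the upstream TXNRD1 window each hold a further match, not shown. A match is a description of the sequence and does not show that NRF2 binds there.

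Values are log2 RMA levels, so a difference of 1 is a doubling. Each siRNA was compared with scramble within its own table by limma, and a gene was called at a Benjamini-Hochberg adjusted p under 0.05 over all 18480 genes. The tables were normalized separately, so levels are not set against each other across tables. Both lncRNAs were compared with the same 2 scramble arrays, so the results for the 2 lncRNAs are not independent and are given side by side. Array medians ran from 7.64 to 7.73 in the table of LINC00324 and from 7.53 to 7.62 in that of LOC400043. All 9 HEK-293 markers had a mean level of at least 5 in every group. Of the markers of other cells, 3 to 4 of 6 blood markers, 3 to 4 of 5 fibroblast markers and 3 of 5 hepatocyte markers reached that level too. The summed HEK-293 marker signal was 13.49 to 13.54 with LINC00324 siRNA 1 and 13.53 on each array with siRNA 2, against 13.48 to 13.49 in scramble cells. It was 13.31 to 13.33 and 13.34 to 13.38 with LOC400043 siRNA 1 and siRNA 2, against 13.41 to 13.44 in scramble cells. Of the 9 HEK-293 markers, 1 was called higher and 3 lower with LOC400043 siRNA 1 (log2 fold changes of -0.77 to 0.26 over the list), and 1 higher and 2 lower with siRNA 2 (-1.31 to 0.45), where CD14 of the blood markers was also higher (0.46) and LUM of the fibroblast markers lower (-0.40). Shares of all genes called higher and lower were 4.05% and 7.46% with LOC400043 siRNA 1, and 7.9% and 13.8% with siRNA 2. The part of these marker differences in the LOC400043 results was not tested.

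LINC00324 itself, listed under its former symbol C17orf44, had levels of 5.37 and 5.03 with LINC00324 siRNA 1 and of 5.24 and 5.60 with siRNA 2, against 5.79 and 5.80 in scramble cells. The siRNA and scramble arrays did not overlap. The log2 fold changes of -0.60 (SE 0.15, adjusted p = 0.184) and -0.38 (SE 0.15, adjusted p = 0.308) did not pass the test. The LOC400043 siRNA arrays were also lower for LINC00324, at 5.42 and 5.42 with siRNA 1 and 5.47 and 5.43 with siRNA 2, against 5.76 and 5.58 in scramble cells. Their log2 fold changes of -0.25 (limma, adjusted p = 0.0931) and -0.22 (adjusted p = 0.0906) did not pass the test. All LINC00324 levels lay well below the array medians given above. No probe set named LOC400043 or LINC02381, its present name, was found in the 2 tables of named genes, so LOC400043 RNA was not analysed here.

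Across the 9 genes, 5 were called with at least 1 siRNA and 4, GCLC, GCLM, TXNRD1 and SRXN1, with none. LINC00324 siRNA 2 gave 2 calls, NQO1 and ME1, both higher, against 1.85% of all genes called. LINC00324 siRNA 1 gave 0 calls by limma, with 3 genes at an unadjusted p under 0.05 and 0.498% of all genes called. LOC400043 siRNA 1 gave 2 calls, ME1 higher and HMOX1 lower, against 11.5% of all genes called. LOC400043 siRNA 2 gave 5 calls, NFE2L2, HMOX1 and ME1 higher and NQO1 and PGD lower, against 21.7% of all genes called. The median log2 fold change of the 9 genes was 0.10 and 0.28 with LINC00324 siRNA 1 and siRNA 2, and -0.02 and 0.19 with LOC400043 siRNA 1 and siRNA 2. The medians of all genes were 0.02, 0.01, 0.03 and 0.01 in the same order. Arrays of siRNA and scramble did not overlap for 5, 7, 7 and 8 of the 9 genes, where the shares over all genes were 39.1%, 49.7%, 54.9% and 56.9%. The calls depended on single arrays. Without an array of LINC00324 siRNA 2 or of scramble, limma called no gene at all with that siRNA, so no call could be kept. With LOC400043 siRNA 1 the calls were lost without any array other than scramble replicate 2. With LOC400043 siRNA 2 some calls were lost whichever array of its table was left out, and the most without either of its own arrays. Without either array of the LOC400043 siRNA concerned, fewer of all genes were called as well. Lower RNA per cell and fewer cells with the RNA cannot be told apart in these bulk samples.

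**Figure D1:**
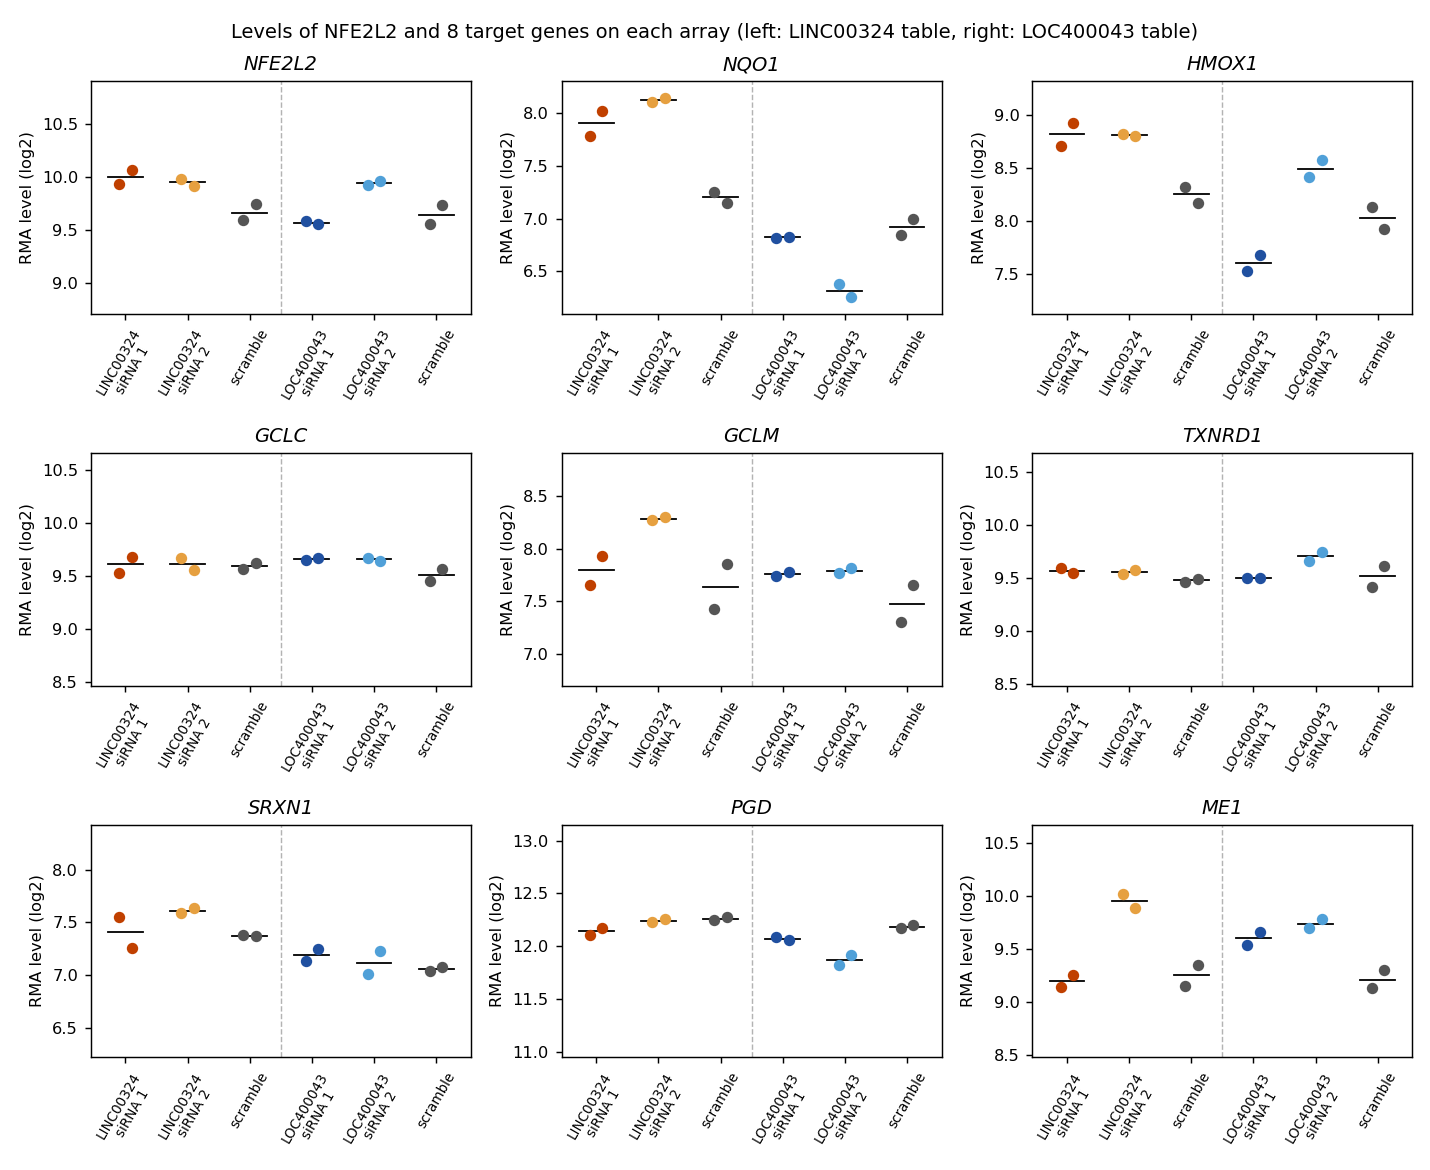
Log2 RMA level on each array for the 9 genes, with siRNA groups left of scramble in each table; points are arrays, black lines are group means, and all panels span the same number of log2 units. NQO1 lies above scramble with both LINC00324 siRNAs and below it with both LOC400043 siRNAs, while the GCLC groups lie within 0.15 of scramble on average.

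NFE2L2, the gene for NRF2 itself, lies on chromosome 2 (minus strand, 178095036 to 178129417, in the coordinates of the deposited tables, with the build not stated). Its level was 9.93 and 10.06 with LINC00324 siRNA 1 and 9.98 and 9.91 with siRNA 2, against 9.59 and 9.74 in scramble cells. In the other table it was 9.58 and 9.55 with LOC400043 siRNA 1 and 9.92 and 9.96 with siRNA 2, against 9.55 and 9.73 in scramble cells. Every array of both LINC00324 siRNAs and of LOC400043 siRNA 2 lay above its scramble arrays, and LOC400043 siRNA 1 overlapped with scramble. Only the rise with LOC400043 siRNA 2 passed the test, by 0.30 (SE 0.08, adjusted p = 0.0369), a 1.23-fold change. The LINC00324 log2 fold changes were about as large, 0.33 (SE 0.09, adjusted p = 0.214) with siRNA 1 and 0.28 (SE 0.09, adjusted p = 0.206) with siRNA 2. With LOC400043 siRNA 1 the value was -0.08 (SE 0.08, adjusted p = 0.59). The LOC400043 siRNA 2 call was lost without scramble replicate 1 (0.21, adjusted p = 0.0918), without either LOC400043 siRNA 2 array (0.32 and 0.28, adjusted p = 0.127 and 0.163) and without either LOC400043 siRNA 1 array (0.30, adjusted p = 0.0785).

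NQO1 encodes a quinone reductase that is widely used as a readout of NRF2 (chromosome 16, minus strand, 69743304 to 69760533). Levels were 7.78 and 8.02 with LINC00324 siRNA 1 and 8.10 and 8.14 with siRNA 2, against 7.25 and 7.15 in scramble cells. With LOC400043 siRNA 1 they were 6.82 and 6.83 and with siRNA 2 they were 6.38 and 6.26, against 6.84 and 7.00 in scramble cells. All 4 LINC00324 siRNA arrays were above scramble and all 4 LOC400043 siRNA arrays were below it, with LOC400043 siRNA 1 close to the nearer scramble array. NQO1 rose with LINC00324 siRNA 2 by 0.92 (SE 0.10, adjusted p = 0.0212), a 1.89-fold change, and the value for siRNA 1 was 0.70 (SE 0.10, adjusted p = 0.0584). It fell by 0.60 with LOC400043 siRNA 2 (SE 0.08, adjusted p = 0.00333), a 1.52-fold decrease, whereas siRNA 1 gave -0.09 (SE 0.08, adjusted p = 0.498). The fall with LOC400043 siRNA 2 was called in 12 of 12 alternative analyses, with values between -0.68 and -0.53. The rise with LINC00324 siRNA 2 kept a value between 0.87 and 0.99 but lost its call without either scramble array (adjusted p = 0.137 and 0.16) and without either siRNA 2 array (adjusted p = 0.19 and 0.25), settings in which limma called 0 of all genes and 1329 to 2261 genes had an unadjusted p under 0.05. Conversely, LINC00324 siRNA 1 was called without its own replicate 1 (0.82, adjusted p = 0.045, with a range of 0.00613 to 0.366 over its 12 alternatives).

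HMOX1 encodes haem oxygenase-1, the inducible enzyme that breaks haem down and a gene that BACH1 represses (chromosome 22, plus strand, 35777057 to 35790200). It measured 8.71 and 8.92 with LINC00324 siRNA 1 and 8.82 and 8.80 with siRNA 2, against 8.32 and 8.17 in scramble cells. In the LOC400043 table it measured 7.52 and 7.68 with siRNA 1 and 8.41 and 8.57 with siRNA 2, against 8.13 and 7.92 in scramble cells. No siRNA group overlapped with scramble, and the LOC400043 siRNAs lay on opposite sides of it. HMOX1 fell by 0.43 with LOC400043 siRNA 1 (SE 0.10, adjusted p = 0.0456) and rose by 0.47 with LOC400043 siRNA 2 (SE 0.10, adjusted p = 0.0213). The LINC00324 siRNAs gave 0.57 each (SE 0.10), a 1.48-fold difference that did not pass the test (adjusted p = 0.0961 with siRNA 1 and 0.0564 with siRNA 2). For LINC00324 siRNA 2 the test was passed with either LINC00324 siRNA 1 array left out (0.57, adjusted p = 0.0273) and in 6 of 12 alternatives in all, with a range of 0.00525 to 0.424. The LOC400043 siRNA 1 call was lost without scramble replicate 1 (-0.32, adjusted p = 0.1), without either of its own arrays (-0.35 and -0.51, adjusted p = 0.246 and 0.125) and without either LOC400043 siRNA 2 array (-0.43, adjusted p = 0.0735). The LOC400043 siRNA 2 call was lost without scramble replicate 2 (0.36, adjusted p = 0.0693) and without either of its own arrays (0.54 and 0.39, adjusted p = 0.0586 and 0.125).

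**Figure D2:**
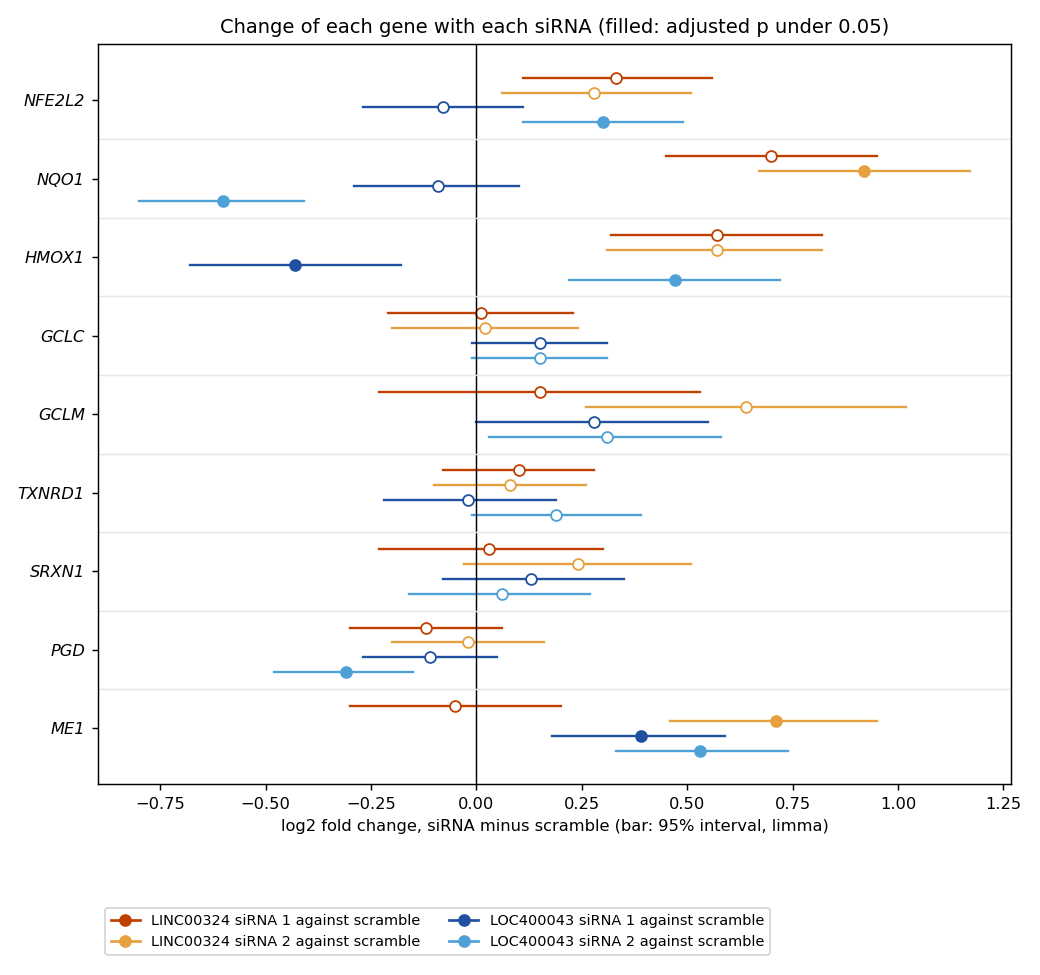
Log2 fold change of each gene with each siRNA against scramble, on a horizontal log2 axis; bars are 95% intervals from limma and filled points passed an adjusted p of 0.05. NQO1 spans the widest range, 0.92 with LINC00324 siRNA 2 and -0.60 with LOC400043 siRNA 2.

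GCLC and GCLM are the catalytic and modifier subunits of glutamate-cysteine ligase, the enzyme that limits glutathione synthesis. GCLC (chromosome 6, minus strand, 53362139 to 53409831) measured 9.53 and 9.68 with LINC00324 siRNA 1 and 9.67 and 9.56 with siRNA 2, against 9.57 and 9.62 in scramble cells. With LOC400043 siRNA 1 and siRNA 2 it was 9.65 and 9.67 and 9.67 and 9.64, against 9.45 and 9.57 in scramble cells. The 4 log2 fold changes were 0.01, 0.02, 0.15 and 0.15, and none passed the test, with 95% intervals reaching no higher than 0.31 and no lower than -0.21.

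GCLM (chromosome 1, minus strand, 94350761 to 94375012) measured 7.66 and 7.93 with LINC00324 siRNA 1 and 8.27 and 8.30 with siRNA 2, against 7.43 and 7.85 in scramble cells. In the other table it measured 7.74 and 7.78 with LOC400043 siRNA 1 and 7.77 and 7.82 with siRNA 2, against 7.31 and 7.66 in scramble cells. LINC00324 siRNA 1 overlapped with scramble, and the other siRNA groups lay above it. The scramble arrays had an SD of 0.30 in the LINC00324 table and 0.25 in the LOC400043 table (n = 2 each), and the SEs of GCLM, 0.16 and 0.12, were the largest of the 9 genes. The value for LINC00324 siRNA 2, 0.64, did not pass the test (adjusted p = 0.111), and with LOC400043 siRNA 1 and siRNA 2 the values were 0.28 (adjusted p = 0.184) and 0.31 (adjusted p = 0.111). Without scramble replicate 2 both LOC400043 values passed, at 0.45 (adjusted p = 0.0255) and 0.49 (adjusted p = 0.011), the only alternative of 12 in which either did, while without scramble replicate 1 they were 0.10 and 0.13. The LINC00324 siRNA 2 value ran from 0.43 to 0.85 over the alternatives and passed in 1 of 12, an intensity trend (adjusted p = 0.0189).

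TXNRD1, the cytosolic thioredoxin reductase (chromosome 12, plus strand, 104609581 to 104744062), measured 9.60 and 9.55 with LINC00324 siRNA 1 and 9.54 and 9.58 with siRNA 2, against 9.46 and 9.49 in scramble cells. It measured 9.50 and 9.50 with LOC400043 siRNA 1 and 9.66 and 9.75 with siRNA 2, against 9.42 and 9.62 in scramble cells. Only LOC400043 siRNA 1 overlapped with scramble. The log2 fold changes of 0.10, 0.08, -0.02 and 0.19, in the order of the groups above, did not pass the test, and the 95% intervals reached 0.39 at most.

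SRXN1, sulfiredoxin, which restores overoxidized peroxiredoxins (chromosome 20, minus strand), was measured by a probe set that spans only 90 bases, 634875 to 634964, and was named by its symbol. Its level was 7.55 and 7.26 with LINC00324 siRNA 1 and 7.59 and 7.64 with siRNA 2, against 7.38 and 7.37 in scramble cells. With LOC400043 siRNA 1 it was 7.14 and 7.25 and with siRNA 2 it was 7.01 and 7.23, against 7.04 and 7.08 in scramble cells. LINC00324 siRNA 1 and LOC400043 siRNA 2 overlapped with scramble. None of its log2 fold changes, 0.03, 0.24, 0.13 and 0.06, passed the test, and the intervals reached 0.51 for LINC00324 siRNA 2.

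PGD and ME1 both make NADPH. PGD, the 6-phosphogluconate dehydrogenase of the pentose phosphate pathway (chromosome 1, plus strand, 10459085 to 10480201), measured 12.11 and 12.17 with LINC00324 siRNA 1 and 12.23 and 12.26 with siRNA 2, against 12.25 and 12.28 in scramble cells. With LOC400043 siRNA 1 it measured 12.09 and 12.06 and with siRNA 2 it measured 11.82 and 11.92, against 12.17 and 12.20 in scramble cells. Both LOC400043 siRNAs and LINC00324 siRNA 1 lay below scramble, and LINC00324 siRNA 2 overlapped with it. PGD fell by 0.31 with LOC400043 siRNA 2 (SE 0.07, adjusted p = 0.0184), a 1.24-fold decrease. The other values were -0.12 (adjusted p = 0.559) and -0.02 (adjusted p = 0.949) with LINC00324 siRNA 1 and siRNA 2 and -0.11 (adjusted p = 0.358) with LOC400043 siRNA 1. The LOC400043 siRNA 2 call was lost without scramble replicate 2 (-0.30, adjusted p = 0.0519) and without either of its own arrays (-0.27 and -0.36, adjusted p = 0.117 and 0.0545).

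ME1 is the cytosolic malic enzyme (chromosome 6, minus strand, 83920108 to 84140790). It measured 9.14 and 9.25 with LINC00324 siRNA 1 and 10.02 and 9.89 with siRNA 2, against 9.15 and 9.35 in scramble cells. In the LOC400043 table it measured 9.54 and 9.66 with siRNA 1 and 9.70 and 9.78 with siRNA 2, against 9.13 and 9.30 in scramble cells. LINC00324 siRNA 1 overlapped with scramble, and the other siRNA groups were all higher. ME1 rose with LINC00324 siRNA 2 by 0.71 (SE 0.10, adjusted p = 0.0321), with LOC400043 siRNA 1 by 0.39 (SE 0.09, adjusted p = 0.0339) and with LOC400043 siRNA 2 by 0.53 (SE 0.09, adjusted p = 0.00666). These are changes of 1.63-fold, 1.31-fold and 1.44-fold. With LINC00324 siRNA 1 the value was -0.05 (SE 0.10, adjusted p = 0.859). The LOC400043 siRNA 2 rise was called in 11 of 12 alternatives and missed the threshold without its own replicate 2 (0.49, adjusted p = 0.0523). The LINC00324 siRNA 2 rise was 0.61 and 0.81 without either scramble array and 0.64 and 0.77 without either of its own arrays. Its call was lost in those fits, in which limma called no gene at all with that siRNA. The LOC400043 siRNA 1 rise was lost without scramble replicate 1 (0.30, adjusted p = 0.0737), without either of its own arrays (0.45 and 0.33, adjusted p = 0.111 and 0.211) and without either LOC400043 siRNA 2 array (0.39, adjusted p = 0.0676).

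The siRNAs of a pair target the same lncRNA, so siRNA 1 was also tested directly against siRNA 2. For LINC00324, 1 of the 9 genes differed, against 3.07% of all genes. ME1 was lower with siRNA 1 than with siRNA 2 by a log2 difference of -0.76 (SE 0.10, adjusted p = 0.0227), a 1.69-fold difference. This call was lost without either scramble array. It was also lost without either siRNA 2 array (-0.69 and -0.82), where limma called no gene at all. NQO1 gave -0.22 (95% interval -0.46 to 0.03) and HMOX1 0.00 (95% interval -0.25 to 0.26), and neither passed the test. For LOC400043, 3 of the 9 genes differed, against 17.1% of all genes. HMOX1 was lower with siRNA 1 than with siRNA 2 by -0.89 (SE 0.10, adjusted p = 0.00256), a 1.86-fold difference that was called in 12 of 12 alternatives. NFE2L2 was also lower with siRNA 1, by -0.38 (SE 0.08, adjusted p = 0.0204), and NQO1 was higher with siRNA 1, by 0.51 (SE 0.08, adjusted p = 0.0074). The NFE2L2 difference lost its call without any one of the 4 siRNA arrays (-0.40 to -0.36, highest adjusted p = 0.126). For NQO1 the call was lost without either siRNA 1 array (0.52 and 0.50, adjusted p = 0.0608 and 0.0594) and without siRNA 2 replicate 2 (0.45, adjusted p = 0.0585). ME1, which was called higher with both LOC400043 siRNAs, differed between them by -0.14 (95% interval -0.35 to 0.06).

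**Figure D3:**
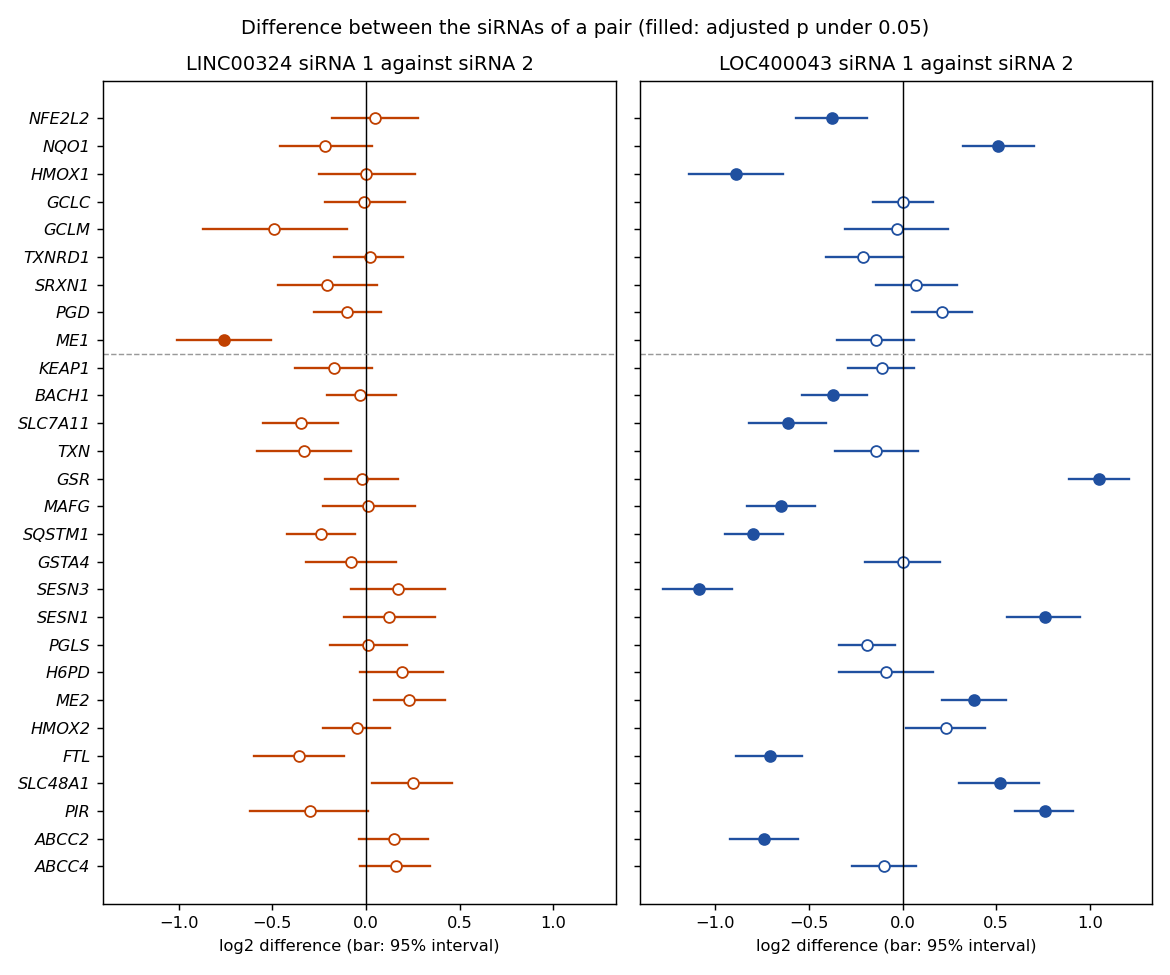
Log2 difference of siRNA 1 against siRNA 2 for LINC00324 and for LOC400043, with the 9 genes above the dashed line and other named pathway genes below it; bars are 95% intervals from limma and filled points passed an adjusted p of 0.05. In the LOC400043 panel HMOX1 stands at -0.89 and NQO1 at 0.51, while in the LINC00324 panel ME1, at -0.76, is the only filled point.

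The wider pathway was read from 6 lists with 81 genes, of which 76 were measured (RBX1, MAFK, TXNRD3, ABCB6 and NQO2 were not analysed here). With LINC00324 siRNA 1, 1 of the 76 was called higher and 0 lower, and with siRNA 2, 3 higher and 2 lower. LOC400043 siRNA 1 gave 2 higher and 13 lower, and siRNA 2 gave 9 higher and 25 lower. The background was 0.216% and 0.281% of all genes called higher and lower with LINC00324 siRNA 1, and 0.503% and 1.34% with siRNA 2. With LOC400043 siRNA 1 it was 4.05% and 7.46%, and with siRNA 2 it was 7.9% and 13.8%. The same shares are the background for the counts of each list below. In each list, up to 3 called genes were named for their largest change on these same arrays, so their size is selected. Genes marked below as named after their values were seen lay outside that rule. The pathway medians were 0.00, 0.03, -0.03 and -0.09. With the arrays centred on their medians, the LOC400043 siRNA 2 split was 13 higher and 21 lower, and over all genes it was then 2190 higher and 1897 lower, against 1459 and 2557 as deposited. The higher count of 2 with LOC400043 siRNA 1 was 1 without either scramble array and 0 without either of its own arrays. Its lower count was 7 without scramble replicate 2, 4 and 3 without its own replicates 1 and 2, and 8 without either siRNA 2 array. With LOC400043 siRNA 2 the lower count was 14 and 12 without its own replicates 1 and 2, and the higher count was 4 without replicate 1. With the LINC00324 siRNAs, limma called no gene at all without either scramble array or either siRNA 2 array, so no pathway call could be kept there. The higher call with LINC00324 siRNA 1 was also lost without either of its own arrays, where some genes were still called. With LINC00324 siRNA 2 the lower count was larger without either siRNA 1 array.

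Among the 10 measured regulators and partners of NRF2, LOC400043 siRNA 2 gave 5 higher and 1 lower, LOC400043 siRNA 1 gave 0 higher and 1 lower, and limma called 0 with the LINC00324 siRNAs, where 1 and 3 had an unadjusted p under 0.05. Over all genes, 7.9% were called higher and 13.8% lower with LOC400043 siRNA 2, and 4.05% and 7.46% with LOC400043 siRNA 1. MAFG, a small MAF partner, was 9.58 and 9.68 with LOC400043 siRNA 2, against 8.95 and 9.05 in scramble cells, a rise of 0.63 (adjusted p = 0.00236). SQSTM1, the autophagy adaptor that sequesters KEAP1, was 10.42 and 10.45 with LOC400043 siRNA 2, against 9.85 and 9.79 in scramble cells, a rise of 0.61 (adjusted p = 0.00158). BACH1 was 9.59 and 9.67 with LOC400043 siRNA 2, against 9.24 and 9.32 in scramble cells, and rose by 0.35 (adjusted p = 0.0163). The other calls, named after their values were seen, were MAFF (0.34, adjusted p = 0.028) and NFE2L1 (0.26, adjusted p = 0.0273) among the higher, and NFE2L3 among the lower with LOC400043 siRNA 1 (-0.32, adjusted p = 0.0368) and siRNA 2 (-0.31, adjusted p = 0.0243). MAFF is another small MAF, and NFE2L1 and NFE2L3 are relatives of NRF2. Each of these calls was lost without either siRNA 1 array or siRNA 2 replicate 1, and in further alternatives, so that they passed in 4 to 7 of 12 (highest adjusted p = 0.226). The BACH1 call was lost without either of the siRNA 2 arrays (highest adjusted p = 0.102). KEAP1 passed the test with no siRNA, with values of 0.07, 0.25, 0.08 and 0.19. MAFG was measured by a different probe set in each table, and with the LINC00324 siRNAs its values were 0.12 and 0.10 (adjusted p = 0.678 and 0.742).

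The glutathione genes (17 measured) gave 1 higher and 0 lower with LINC00324 siRNA 1, 2 higher and 1 lower with LINC00324 siRNA 2, 1 higher and 3 lower with LOC400043 siRNA 1, and 1 higher and 5 lower with LOC400043 siRNA 2. SLC7A11, the cystine importer, was 10.85 and 10.87 with LINC00324 siRNA 1 and 11.22 and 11.20 with siRNA 2, against 9.99 and 10.14 in scramble cells. It rose by 0.80 (adjusted p = 0.025) and by 1.15 (adjusted p = 0.00901), a 2.21-fold change with siRNA 2. It also rose with LOC400043 siRNA 2, by 0.58 (adjusted p = 0.00522), while siRNA 1 gave -0.03 (adjusted p = 0.844). The LINC00324 siRNA 1 call was lost without any one of the 6 arrays of its table (0.72 to 0.87). The LINC00324 siRNA 2 call was lost without either scramble array or either siRNA 2 array (1.07 to 1.22). Without either scramble array or either siRNA 2 array, limma called no gene at all with either LINC00324 siRNA. GSR, glutathione reductase, moved the other way from SLC7A11 with LOC400043 siRNA 2. It was 9.92 and 10.00 with that siRNA, against 10.88 and 10.90 in scramble cells, and fell by 0.93 (adjusted p = 0.000633). GSTA4, a glutathione transferase for lipid aldehydes, fell by 1.06 with LOC400043 siRNA 1 (adjusted p = 0.00181) and by 1.06 with siRNA 2 (adjusted p = 0.000747). With the LINC00324 siRNAs GSTA4 gave 0.02 and 0.10. Named after their values were seen, GSS, glutathione synthetase, fell by 0.31 and 0.61 (adjusted p = 0.031 and 0.00179) and GSTP1, a glutathione transferase, by 0.37 and 0.37 (adjusted p = 0.0208 and 0.013) with LOC400043 siRNA 1 and siRNA 2. GSTM3 fell by 0.24 with siRNA 2. GLRX, glutaredoxin, fell by 0.47 with LINC00324 siRNA 2 (adjusted p = 0.0433) and rose by 0.41 with LOC400043 siRNA 1 (adjusted p = 0.0255), and GSTM2 rose by 0.51 with LINC00324 siRNA 2 (adjusted p = 0.0368). The LINC00324 siRNA 2 calls of GLRX and GSTM2 were lost with the replicate number as a block (adjusted p = 0.0622 and 0.053), that of GLRX also with centred arrays. Both were also lost without either scramble array or either siRNA 2 array, where limma called no gene at all with that siRNA. The GLRX call with LOC400043 siRNA 1 was lost without either scramble array or either of its own. That of GSTM3 was lost without any array but scramble replicate 1, and also with centred arrays and with a second quantile normalization. The LOC400043 siRNA 1 calls of GSS and GSTP1 were lost without either siRNA 1 array, among others, and the GSTP1 call with siRNA 2 without its replicate 2.

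Of the 10 NADPH supply genes, LOC400043 siRNA 1 gave 0 higher and 4 lower, LOC400043 siRNA 2 gave 0 higher and 6 lower, and limma called 0 of them with either LINC00324 siRNA, where 2 and 4 had an unadjusted p under 0.05 with siRNA 1 and siRNA 2. PGLS, the 6-phosphogluconolactonase that acts just before PGD, was 7.09 and 7.10 with LOC400043 siRNA 1 and 7.30 and 7.26 with siRNA 2, against 8.01 and 8.04 in scramble cells. It fell by 0.93 (adjusted p = 0.00129) and by 0.74 (adjusted p = 0.000893). H6PD, a dehydrogenase that makes NADPH in the endoplasmic reticulum, fell by 0.56 (adjusted p = 0.019) and by 0.47 (adjusted p = 0.0203). ME2, the mitochondrial malic enzyme, fell by 0.40 with siRNA 2 (adjusted p = 0.00904), where the cytosolic ME1 rose. The isocitrate dehydrogenase IDH2 fell by 0.36 and 0.43 (adjusted p = 0.0271 and 0.00912) with siRNA 1 and siRNA 2, and IDH1 by 0.32 with siRNA 2 (adjusted p = 0.0139), both named after their values were seen. The IDH2 call with siRNA 1 was lost without any one of the 6 arrays of its table (highest adjusted p = 0.19) and with siRNA 2 without its replicate 2 (0.0667), and the IDH1 call without either siRNA 2 array (0.0921). The H6PD call with siRNA 1 was lost without scramble replicate 2 or siRNA 1 replicate 2 (highest adjusted p = 0.106), and with siRNA 2 without scramble replicate 2 or either of its own arrays (highest adjusted p = 0.113). The ME2 call was lost without siRNA 2 replicate 1 (adjusted p = 0.0666).

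In the thioredoxin and peroxiredoxin list (13 measured) the only genes called were SESN1 and SESN3, sestrins, which answer oxidative stress. The counts were 0 of 13 with LINC00324 siRNA 1, where limma gave 2 an unadjusted p under 0.05, and 0 higher and 1 lower with each of the other siRNAs. TXN, thioredoxin, gave -0.01, 0.32, -0.14 and 0.00 and passed no test. SESN1 fell by 0.73 with LINC00324 siRNA 2 (adjusted p = 0.0287) and by 0.55 with LOC400043 siRNA 2 (adjusted p = 0.00512). The first of these was lost without either scramble array or either LINC00324 siRNA 2 array, where limma called no gene at all with that siRNA. SESN3 fell by 0.90 with LOC400043 siRNA 1 (adjusted p = 0.0024), with 8.61 and 8.54 against 9.42 and 9.53 in scramble cells.

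Around HMOX1, 7 haem and iron genes were measured, with 0 higher and 1 lower for LOC400043 siRNA 1 and 1 higher and 4 lower for siRNA 2, and 0 called by limma with LINC00324 siRNA 1 and siRNA 2, where 0 and 3 had an unadjusted p under 0.05. FTL, the ferritin light chain, was the gene called higher with LOC400043 siRNA 2, at 11.20 and 11.18 against 10.66 and 10.81 in scramble cells, a rise of 0.46 (adjusted p = 0.0066). HMOX2, the constitutive haem oxygenase, fell by 0.53 (adjusted p = 0.00721) and the haem transporter SLC48A1 fell by 0.42 (adjusted p = 0.0182) with the same siRNA. The others called lower, named after their values were seen, were BLVRB, a biliverdin reductase, with LOC400043 siRNA 1 (-0.32, adjusted p = 0.0299) and siRNA 2 (-0.35, adjusted p = 0.0141), and FECH, ferrochelatase, with siRNA 2 (-0.28, adjusted p = 0.0375). The BLVRB call was lost with siRNA 1 without any one of the 6 arrays and with siRNA 2 without its replicate 2. The FECH call was lost without any array but scramble replicate 1, and also with centred arrays and with a second quantile normalization. The FTL call was lost without siRNA 2 replicate 1 (adjusted p = 0.0507), and the SLC48A1 call without scramble replicate 1 or either siRNA 2 array (highest adjusted p = 0.109).

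The detoxification and efflux genes (19 measured) gave 1 higher with LINC00324 siRNA 2, 0 with LINC00324 siRNA 1 by limma, where 3 had an unadjusted p under 0.05, 1 higher and 3 lower with LOC400043 siRNA 1 and 2 higher and 8 lower with LOC400043 siRNA 2. PIR, pirin, an iron-binding nuclear protein, rose by 0.97 with LINC00324 siRNA 2 (adjusted p = 0.0273) and by 0.44 with LOC400043 siRNA 1 (adjusted p = 0.00882), and it fell by 0.31 with LOC400043 siRNA 2 (adjusted p = 0.0153). Its value with LINC00324 siRNA 1 was 0.67 (adjusted p = 0.111). ABCC2, an efflux pump for conjugates, rose by 0.66 with LOC400043 siRNA 2 (adjusted p = 0.00212). ABCC4, a pump of the same family, fell by 0.57 (adjusted p = 0.00577) and by 0.47 (adjusted p = 0.00566) with LOC400043 siRNA 1 and siRNA 2. With both LOC400043 siRNAs EPHX1, an epoxide hydrolase, fell by 0.49 (adjusted p = 0.0119 and 0.00644) and AKR1A1, an aldehyde reductase, by 0.43 and 0.48 (adjusted p = 0.0108 and 0.00363), and AKR1C2, an aldo-keto reductase, rose by 0.33 with siRNA 2 (adjusted p = 0.0165). With siRNA 2 the efflux pumps ABCC1 and ABCC5 fell by 0.56 and 0.46 (adjusted p = 0.00269 and 0.00574), the carbonyl reductase CBR1 by 0.36 (adjusted p = 0.0107) and the aldose reductase AKR1B1 by 0.25 (adjusted p = 0.0306). These 7 were named after their values were seen. The calls of CBR1, AKR1C2 and, with siRNA 1, EPHX1 and AKR1A1 were lost without either array of the siRNA concerned. That of AKR1B1 was lost without any one of the 6 arrays and also with centred arrays. The PIR calls were lost without either array of the siRNA concerned, and the LINC00324 one also without either scramble array. In those LINC00324 fits limma called no gene at all. The ABCC4 call with LOC400043 siRNA 1 was lost without either array of that siRNA.

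**Figure D4:**
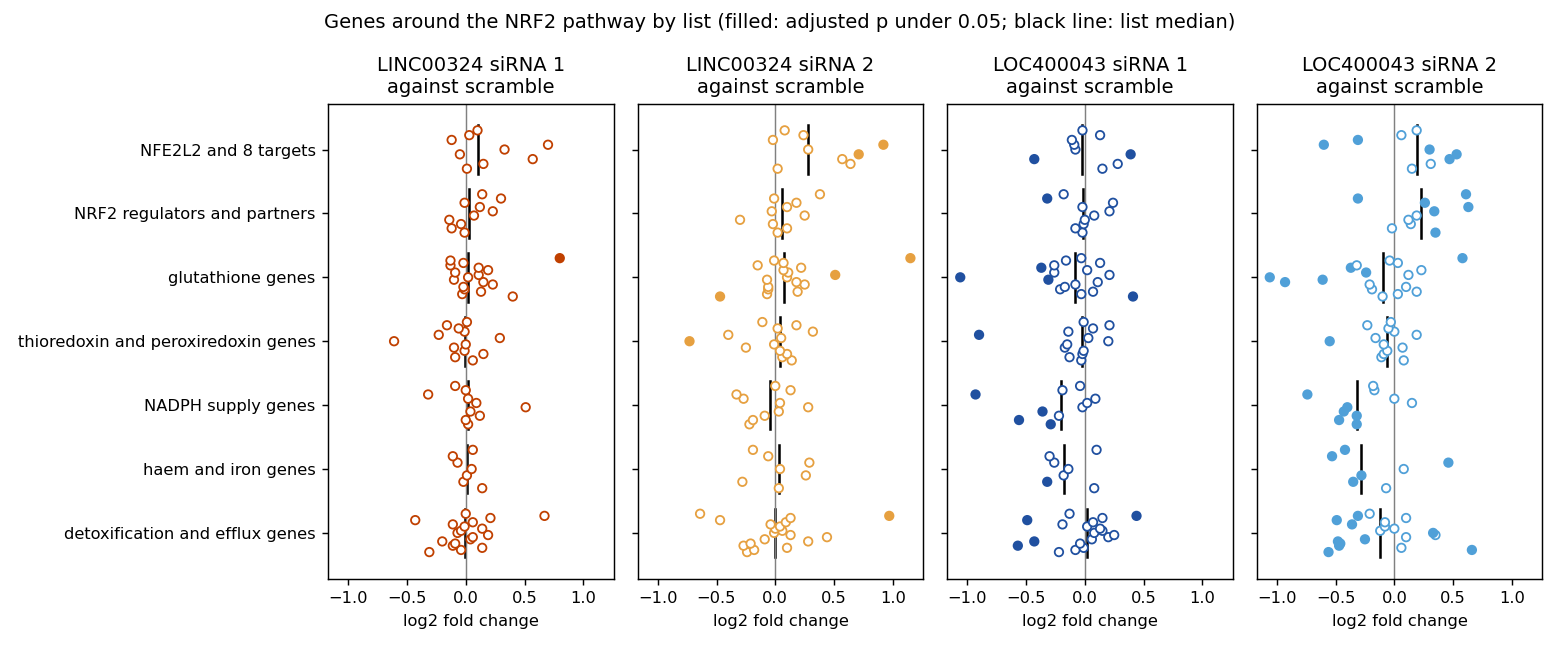
Log2 fold changes against scramble of the 9 genes and of 6 pathway lists, 1 panel per siRNA; each point is a gene, filled points passed an adjusted p of 0.05 and black lines are list medians. With LOC400043 siRNA 2 the NADPH supply genes hold 6 filled points, all below 0, and the regulators hold 5 above 0 and 1 below. Over all genes, 7.9% were called higher and 13.8% lower with that siRNA.

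The genes whose levels followed NFE2L2 and NQO1 most closely were taken by Pearson r over the 6 arrays of each table, which fall into 3 groups of 2, and are given as a description. In the LINC00324 table they were RBM22 (r = 0.997), SEC23B (r = 0.995) and DCTN5 (r = 0.994) for NFE2L2, and ZFAND2A, LOC152217 and NAPG (r = 0.994 each) for NQO1. In the LOC400043 table they were ZC3H12C (r = 0.999), ICMT (r = 0.996) and SNORD4B (r = 0.993) for NFE2L2, and RRP9, PIK3R1 and MSR1 (r = 0.998 each) for NQO1. No gene was named in both tables, and none of these is among the pathway genes listed above.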

How the data were processed

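RNA from HEK-293 cells was hybridised to 10 Affymetrix HuGene-1_0-st arrays. The authors deposited 2 tables of 18480 genes with log2 values made by RMA, per the labels, each with 2 scramble arrays and the 4 siRNA arrays of 1 lncRNA. The deposited tables also hold the authors' p-value per gene and their log2 difference (siRNA minus scramble), which matched the difference of means within 0.00050. For the tools no version, and for coordinates no genome build, was stated in the sources used here. Scramble values differed between tables by a median of 0.118 (log2), and a deposited value table of all arrays joins, for these genes, the scramble and LINC00324 values of one table with the LOC400043 siRNA values of the other, so it was not fitted. The number of arrays limits the precision.

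Fits were made per table in R 4.3.3 using limma 3.58.1 with lmFit, contrasts.fit and eBayes (two-sided, 3 groups, 3 residual degrees of freedom, Benjamini-Hochberg over all genes, called under 0.05) without a filter. The steps were tested on simulated data. Symbols were updated by RefSeq accession for 17289 genes of the LINC00324 table and 17294 of the LOC400043 table. Cell type markers were counted at a mean level of at least 5. The genes and lists were chosen with earlier results of these data known. Named were the 9 genes, KEAP1, BACH1, SLC7A11, TXN and GSR, up to 3 called genes per list by largest change, and the 3 genes most like NFE2L2 and NQO1. A further gene of that rule is not reported here. Alternatives were the replicate block, an intensity trend, a filter on dim genes, 2 scalings, each array left out, and only the 4 arrays compared. The authors' p-values were not used.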

Additional observations from a re-analysis of the deposited data

Results flagged for a closer look

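Direct tests of siRNA 1 against siRNA 2 found differences (limma, adjusted p under 0.05) among the named genes. Over all genes, 3.07% were called in this test for LINC00324 and 17.1% for LOC400043. MAFG, SQSTM1, SESN3, SESN1, FTL, ABCC2, ME2, SLC48A1 and PIR were named for large called changes against scramble on these same arrays. That choice favours genes that differ between siRNAs, so the number of differences cannot be read against those shares. For LINC00324 the gene that differed was ME1, with a log2 difference of -0.76. For LOC400043, NFE2L2 (-0.38), HMOX1 (-0.89), BACH1 (-0.37), SLC7A11 (-0.61), MAFG (-0.65), SQSTM1 (-0.80), SESN3 (-1.09), FTL (-0.71) and ABCC2 (-0.74) were lower with siRNA 1 than with siRNA 2. NQO1 (0.51), GSR (1.05), SESN1 (0.76), ME2 (0.38), SLC48A1 (0.52) and PIR (0.76) were higher with siRNA 1. The BACH1 difference lost its call without any one of the 4 siRNA arrays (highest adjusted p = 0.123), ME2 without either siRNA 1 array or siRNA 2 replicate 1 (0.0987), and SLC48A1 without siRNA 1 replicate 1 or either siRNA 2 array (0.0739).

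Among the 9 genes, there were 2 for which every array of a LINC00324 siRNA and every array of a LOC400043 siRNA lay on opposite sides of scramble. The share of all genes on opposite sides was not computed. With single siRNAs, 39.1% to 56.9% of all genes did not overlap with scramble, so the count of 2 has no background to be read against. The difference between the lncRNAs was not tested, since the tables were normalized separately and share their scramble arrays. NQO1 had log2 fold changes of 0.70 and 0.92 with LINC00324 siRNA 1 and siRNA 2, and of -0.09 and -0.60 with LOC400043 siRNA 1 and siRNA 2. HMOX1 had 0.57 with each LINC00324 siRNA and -0.43 with LOC400043 siRNA 1, while its value with LOC400043 siRNA 2, 0.47, lay on the same side as with LINC00324.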

How the results depend on the processing

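With 2 arrays per group, the calls depend on single arrays. In several of the LINC00324 fits with an array left out, limma called no gene at all, so no call could be kept there. The 9 genes' calls over the arrays left out in turn ranged from 0 to 1 with LINC00324 siRNA 1 (0 with all arrays), 0 to 3 with LINC00324 siRNA 2 (2), 0 to 3 with LOC400043 siRNA 1 (2), 1 to 4 with LOC400043 siRNA 2 (5), 0 to 1 for LINC00324 siRNA 1 against siRNA 2 (1) and 1 to 3 for LOC400043 siRNA 1 against siRNA 2 (3). An intensity trend gave 3 calls with LINC00324 siRNA 1 and 5 with siRNA 2, and a second quantile normalization gave 2 with LINC00324 siRNA 1. Only the 4 arrays compared gave 0 calls with LOC400043 siRNA 1 and 0 for LINC00324 siRNA 1 against siRNA 2. That fit equals leaving out an array of the third group, since a lone array adds nothing to the spread. The cause of these shifts was not tested beyond that. Of the 9 genes' log2 fold changes under the alternatives, 555 kept their direction and their side of the threshold, 45 lost a call, 17 gained one and 31 without a call changed sign, and no called value changed sign. Of the 76 pathway genes, an intensity trend gave 10 higher and 8 lower with LINC00324 siRNA 2 (3 and 2). With LOC400043 siRNA 1 it gave 4 higher and 24 lower (2 and 13). Over all genes, the trend gave 378 higher and 553 lower with LINC00324 siRNA 1 (40 and 52), 488 and 1012 with LINC00324 siRNA 2 (93 and 248) and 1333 and 2146 with LOC400043 siRNA 1 (749 and 1379), and a second quantile normalization gave 179 and 161 with LINC00324 siRNA 1 and 282 and 499 with siRNA 2. Those alternatives for pathway counts were chosen after seeing the data. The fit of the value table of all arrays was not run, because that table joins values of 2 separate normalizations.

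The replicate numbers are shared between groups, but the labels name no common batch, and there are 2 numbers only. With the replicate number as a block, the calls among the 9 genes were 0, 2, 2, 5, 1 and 3 in the order above, as without it, and with LINC00324 siRNA 2, 2 pathway genes were called higher and 1 lower, against 3 and 2 without the block. Across genes, the replicate differences of groups correlated at -0.38, 0.60 and -0.18 in the LINC00324 table and at 0.09, 0.23 and 0.37 in the LOC400043 table (siRNA 1 with siRNA 2, siRNA 1 with scramble, siRNA 2 with scramble).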
